A study of Homo sapiens with 11 samples.

Results

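DKK1 and 9 other genes of the WNT pathway were followed in the human-assigned RNA reads of 11 PC-3 xenografts. The members are DKK1, DKK3, WNT5A, WNT7B, WNT10B, CTNNB1, AXIN2, LEF1, TCF7L2 and RNF43, chosen as DKK1, known from this line, with ligands and beta-catenin pathway genes, and they were matched by symbol among the 25590 genes listed. All 10 of the 10 were found, and all 10 passed the filter on low counts that kept 16630 genes for the test. PC-3 is a human prostate carcinoma line, and its cells were grown under the skin of male athymic nude mice (Crl:NU-Foxn1nu), which lack T cells, aged 8 weeks. Tumour-bearing mice received intraperitoneal A2M*, the transformed form of alpha-2-macroglobulin, at 5.6 mg per 20 g body weight (6 tumours), or PBS (5 tumours), between day 7 and day 31. Every tumour therefore came from the same line and the same host strain, and the host keeps its innate immune cells and stroma. Reads that had been assigned to human were counted, and reads assigned to the mouse host were not used here. The values describe the grafted cells as far as this sorting by species was complete, which was not tested.

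WNT proteins are secreted lipid-bearing ligands that bind Frizzled receptors. With the co-receptors LRP5 and LRP6, canonical ligands keep beta-catenin (CTNNB1) from being degraded by a complex built on axin and APC, and beta-catenin then works with TCF and LEF factors on target genes. DKK1 is a secreted antagonist that blocks LRP5 and LRP6, and RNF43 is a ubiquitin ligase of the cell surface that removes Frizzled receptors. AXIN2, LEF1, RNF43 and DKK1 are themselves known as targets of beta-catenin in many tissues. In prostate cancer, DKK1 is best known from bone metastases, where it holds back bone formation, and PC-3 is a line with bone-destroying growth and high DKK1.

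DKK1 lay at chr10:54074041-54077802 on the forward strand of GRCh37, the assembly also called hg19, and TCF7L2 at chr10:114710006-114927437, also forward. The sequences before their start sites are shown since, of the members, these were the ones with a TCF/LEF-type motif there, and DKK1 is the member that stood apart in level. Of the 10 members, 6 (DKK1, WNT5A, CTNNB1, LEF1, TCF7L2 and RNF43) had entries in the RefSeq promoter table, with 10 windows in all, each cut to the 250 bases before a start site. The search took CTTTGAT as the strongest form of the site, its variant CTTTGAA, and also the forms CTTTGTT as well as CTTTGTA, on both strands. These words are of equal length and differ in their last letters, so that no match counted for more than 1 of them. At least 1 of them stood in 2 of the 10 windows, against 12.0% of 35116 windows of the same length over all genes. Capitals mark the motifs, and the coordinates are those of RefSeq on GRCh38.p14, another assembly than that of the counts.
DKK1, chr10:52314031-52314280, forward: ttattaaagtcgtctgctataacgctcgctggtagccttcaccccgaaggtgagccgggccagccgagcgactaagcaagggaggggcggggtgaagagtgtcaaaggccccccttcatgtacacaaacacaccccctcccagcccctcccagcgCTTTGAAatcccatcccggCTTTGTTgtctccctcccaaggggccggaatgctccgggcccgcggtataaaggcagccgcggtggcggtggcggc
TCF7L2, chr10:113126383-113126632, forward: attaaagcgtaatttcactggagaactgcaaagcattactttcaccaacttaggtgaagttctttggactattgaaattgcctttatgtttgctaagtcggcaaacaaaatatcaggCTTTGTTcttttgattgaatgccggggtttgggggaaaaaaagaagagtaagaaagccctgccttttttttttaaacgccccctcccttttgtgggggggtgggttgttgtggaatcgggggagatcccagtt
In the DKK1 window CTTTGAA, present in 3.80% of all windows, began 95 bases before the start, and CTTTGTT, present in 4.50%, began 76 bases before it. The DKK1 window had a GC content of 62.8%. In TCF7L2, CTTTGTT began 133 bases before 1 of its internal start sites, in a window with 42.4% GC. These matches are letters only, and no binding was measured in this series.

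The members spanned a range from one of the most abundant RNAs of the tumours down to RNAs near the limit of counting. Levels between genes are given as RPKM, the deposited read count of a gene divided by its exon length and by the total of the tumour, as mean ± SD over the 11 tumours. DKK1 had 1027 ± 176 RPKM, which placed it at rank 33 of the 16630 genes tested, above 99.8% of them. It ran from 742.2 to 1370 RPKM and took 0.184% of all counts. CTNNB1 came next with 116.1 ± 8.16 RPKM, above 97.1% of the genes tested. DKK1 exceeded CTNNB1 by 8.75-fold and did so in 11 of 11 tumours (two-sided exact sign-flip permutation test, n = 11, adjusted p = 0.00176 over 9 neighbouring pairs).

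The ligand WNT7B with 7.80 ± 1.49 RPKM and the transcription factor TCF7L2 with 7.33 ± 0.871 RPKM stood near the middle of the genes tested, above 54.1% and 52.6% of them. CTNNB1 exceeded WNT7B 15.1-fold in 11 of 11 tumours (exact sign-flip permutation test, adjusted p = 0.00176). The order of WNT7B and TCF7L2 was not settled, since WNT7B was higher in 5 of 11 tumours (exact sign-flip permutation test, adjusted p = 0.514). Below them, RNF43 stood at 3.70 ± 0.617 RPKM, 1.99-fold lower than TCF7L2 and lower in 11 of 11 tumours (exact permutation, adjusted p = 0.00176). RNF43 and WNT5A, with 3.19 ± 0.613 RPKM, did not differ beyond their spread (RNF43 higher in 8 of 11, exact permutation, adjusted p = 0.191). AXIN2, a scaffold of the beta-catenin destruction complex, followed with 1.74 ± 0.240 RPKM, below WNT5A in 11 of 11 tumours (1.82-fold, exact permutation, adjusted p = 0.00176).

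At the low end, WNT10B had 0.531 ± 0.0969 RPKM, below AXIN2 in 11 of 11 tumours (3.26-fold, exact permutation, adjusted p = 0.00176). LEF1 had 0.449 ± 0.202 RPKM, and WNT10B and LEF1 did not differ beyond their spread (WNT10B higher in 7 of 11 tumours, exact sign-flip permutation test, adjusted p = 0.112). DKK3 was lowest with 0.256 ± 0.0947 RPKM, below LEF1 in 10 of 11 tumours (1.68-fold, exact permutation, adjusted p = 0.00293) and above 6.02% of the genes tested. The counts behind these levels differed widely, from 28557 to 69046 per tumour for DKK1, 20 to 47 for WNT10B, 19 to 96 for LEF1 and 8 to 44 for DKK3. The members with the fewest counts were among the most variable, with a coefficient of variation of 43.3% for LEF1 and 37.4% for DKK3, yet WNT10B had 16.9% and DKK1 15.9%. CTNNB1 varied least, with 7.23%.

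**Figure D1:**
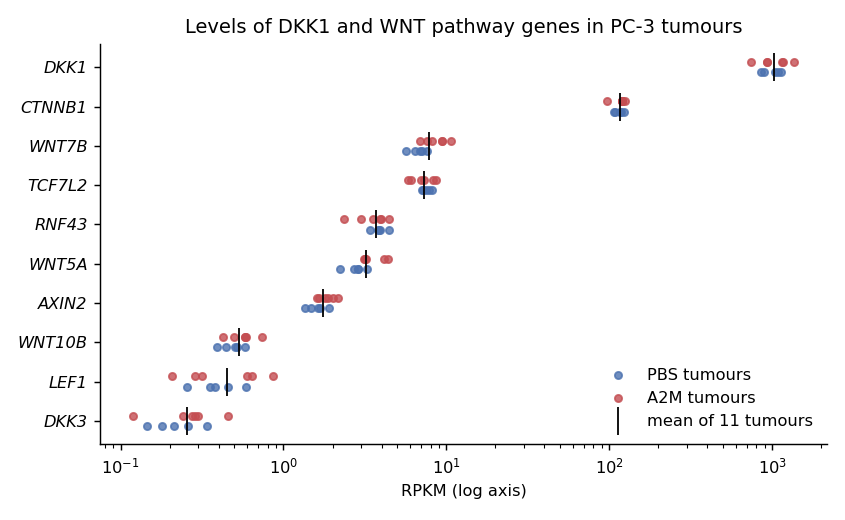
Level of the 10 members in each tumour as RPKM on a log axis, ordered by the mean over 11 tumours (black line), with PBS tumours in blue and A2M* tumours in red (legend: A2M). DKK1 lies above 742 RPKM in every tumour and DKK3 is lowest on average, with 0.256 RPKM.

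Between the groups, none of the 10 members passed the adjusted p threshold of 0.01 in edgeR's quasi-likelihood test, where 0 of 16630 genes did (0.0%). The members' adjusted p lay between 0.640 and 0.982, and the smallest of all genes was 0.599. At an unadjusted p under 0.05, 2 members were called, both ligands, WNT7B and WNT5A, and both were higher with A2M*. Over all genes 7.08% had such a p in either direction and 3.55% were higher with A2M*. The log2 fold change of A2M* against PBS was above 0 for 7 members and below 0 for 3, with a median of 0.18 against -0.0021 over all genes tested. The groups overlapped in every member, while 0.71% of all genes had groups without overlap. Totals lay between 26042224 and 35874381 counts in the PBS group and between 16958533 and 33223999 in the A2M* group, so that 3 counts equalled 0.0836 to 0.177 RPM, the deposited counts scaled to the same total in every tumour. In RNA of whole tumours, fewer cells of a type and less RNA per cell cannot be told apart. Each library is 1 tumour, and p-values measure the spread between these tumours only.

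DKK1 differed little between the groups. In the following, CPM are counts relative to the total of the tumour, on the scale of RPM and adjusted by TMM factors, and the PBS tumours are given in the order of their labels, from PC3_tumor_123 to PC3_tumor_127. DKK1 had 1929, 1615, 1951, 2028 and 1650 CPM in the 5 PBS tumours, and between 1346 and 2409 CPM with a median of 1867 CPM in the 6 A2M* tumours. The A2M* tumours lay on both sides of the PBS range, 3 above it and 1 below it. The group means were 1835 ± 189 CPM (SD, n = 5) and 1866 ± 380 CPM (SD, n = 6), which differed on the log2 scale by 0.02 with a 95% interval from -0.26 to 0.31 (edgeR adjusted p = 0.982), and its sign turned when PC3_tumor_124, PC3_tumor_127, PC3_tumor_128, PC3_tumor_130 or PC3_tumor_132 was left out (-0.059 without PC3_tumor_130). Differences inside that interval remain compatible with the values of these 11 tumours. DKK1 made up 99.97% of the summed RPKM of DKK1 to DKK4 in the PBS group and 99.96% in the A2M* group. Among its relatives, DKK2 had 1 to 9 counts per tumour and DKK4 0 to 1 counts.

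DKK3, a divergent family member that is often silenced in carcinomas, was near the limit of counting. The 5 PBS tumours had 0.630, 1.06, 0.453, 0.534 and 0.796 CPM, and the A2M* tumours 0.350 to 1.38 CPM with a median of 0.830 CPM. The lowest and the highest tumour were both from the A2M* group. DKK3 had a log2 fold change of 0.27 with a 95% interval from -0.37 to 0.90 (edgeR adjusted p = 0.905), and single tumours moved it, to 0.047 without PC3_tumor_112 and 0.47 without PC3_tumor_124. DKK3 counts may also be uncertain, since its GENCODE exons overlap USP47 on the other strand and the library kit does not mark strand. USP47 had a mean of 2454 counts per tumour. The overlap took 5681 bases, 47.5% of the GENCODE exon bases of DKK3. The RefSeq model that was counted has 2990 exon bases, and the shared part of that model was not determined. DKK1 shares 10.2% of its GENCODE exon bases with PRKG1-AS1, which had a mean of 41.8 counts.

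The ligands WNT7B and WNT5A were the members with the smallest p. WNT7B, a ligand of canonical signalling in epithelia, had 29.4, 29.1, 23.1, 26.8 and 25.7 CPM in the 5 PBS tumours. In the A2M* tumours it had 26.2 to 40.7 CPM with a median of 33.9 CPM. Of the 6 A2M* tumours, 5 lay above every PBS tumour, and PC3_tumor_132, at 26.2 CPM, lay within the PBS range. The means were 26.8 ± 2.61 CPM (SD, n = 5) for PBS and 33.5 ± 5.43 CPM (SD, n = 6) for A2M*, 1.25-fold higher with a 95% interval from 1.06 to 1.48. This was a log2 fold change of 0.32 ± 0.112 (SE), with an unadjusted p of 0.0119 and an adjusted p of 0.640 in edgeR, and the two-sided exact permutation test of WNT7B over all labelings of the tumours gave p = 0.0346. WNT7B is annotated at chr22:46316246-46373042 on the reverse strand of GRCh37.

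WNT5A, the prototype of the non-canonical ligands that act through ROR receptors and cell polarity, showed a difference of like size. The 5 PBS tumours had 16.7, 21.2, 14.5, 17.9 and 18.3 CPM, and the A2M* tumours had 19.5 to 26.7 CPM with a median of 19.7 CPM. Every A2M* tumour exceeded 4 of the 5 PBS tumours, and 2 of 6 exceeded all 5. The means were 17.7 ± 2.44 CPM (SD, n = 5) and 21.7 ± 3.33 CPM (SD, n = 6), 1.23-fold higher with a 95% interval from 1.03 to 1.46. WNT5A had a log2 fold change of 0.30 ± 0.117 (SE), an unadjusted p of 0.0244 and an adjusted p of 0.648 in edgeR, with p = 0.0476 in the exact permutation test. The unadjusted p of WNT5A was above 0.05 without PC3_tumor_123 (0.0529) or PC3_tumor_125 (0.0717) of the PBS group, or PC3_tumor_130 (0.0550) or PC3_tumor_131 (0.0575) of the A2M* group. WNT5A is annotated at chr3:55499743-55524567 on the reverse strand.

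WNT10B, a canonical ligand known from bone and fat, had 1.36, 1.10, 1.27, 1.18 and 0.938 CPM in the PBS tumours and 0.986 to 1.70 CPM, median 1.37 CPM, with A2M*. Its groups overlapped widely, although 3 of 6 A2M* tumours were above the PBS range. Its log2 fold change was 0.19 with a 95% interval from -0.15 to 0.54 (edgeR adjusted p = 0.864).

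Other sets of transcripts bear on how these tumours compare. Of 10 hypoxia-regulated genes, all 10 were lower with A2M*, with a median log2 fold change of -0.65. In edgeR 8 of them had an unadjusted p under 0.05, against 7.08% of all genes tested, and the smallest adjusted p was 0.599. Of these 8, only PDK1, BNIP3 and LOX were also under 0.05 in the two-sided exact permutation test. CA9, SLC2A1, NDRG1, ADM and ANKRD37 had an exact permutation p between 0.0519 and 0.119. The hypoxia list was chosen with earlier results of these data known, so that its counts are a description and no test of the list. The summed level of the 10 hypoxia-regulated genes was 452.2 to 1302 RPKM in PBS tumours and 350.3 to 897.0 RPKM in A2M* tumours. Of 15 markers of host stroma and blood cells, 12 could be tested, with 1 higher and 1 lower at an unadjusted p under 0.05 in edgeR. The higher was COL1A2 (edgeR p = 0.0459, exact permutation p = 0.141) and the lower VWF (edgeR p = 0.0247, exact permutation p = 0.0195). The summed level of the 15 markers in the human-assigned reads was 74.7 to 135.1 RPKM for PBS and 73.4 to 178.2 RPKM for A2M*. None of the 15 was at 0 in every tumour. Most of the sum was the collagen COL1A1, with a mean of 89.0 RPKM and 7677 to 28262 counts, followed by CD68 with 13.1 RPKM, COL3A1 with 5.38 RPKM, PECAM1 with 3.93 RPKM and ACTA2 with 2.42 RPKM. The other 10 had means below 1 RPKM, the lowest being DCN with 0 to 3 counts and LUM with 2 to 5. The 5 epithelial markers summed to 1084 to 1372 RPKM for PBS and 895.6 to 1370 RPKM for A2M*, led by the keratins KRT19 with 394.4 RPKM, KRT18 with 316.4 RPKM and KRT8 with 244.6 RPKM. Of the luminal prostate markers, KLK3 had 0 counts in every tumour and KLK2 had 0 to 1, so that the epithelial label was borne out by its markers while these prostate-specific kallikreins were at or near 0. The part of any of these in the WNT7B and WNT5A differences was not tested.

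WNT7B and WNT5A were minor parts of the ligand pool. The 19 WNT ligands together had 42.7 to 54.8 RPKM in the PBS tumours and 44.2 to 64.2 RPKM in the A2M* tumours. Most of this was WNT7A, a close relative of WNT7B, at 27.2 RPKM, which differed by a log2 fold change of 0.04 ± 0.134 (SE; edgeR adjusted p = 0.970). WNT9A with 4.59 RPKM also stood above WNT5A, and WNT3 had 2.41 RPKM. The share of WNT7B was 13.8% ± 1.16 (SD, n = 5) in the PBS group and 16.2% ± 2.30 (SD, n = 6) with A2M*, which did not pass a two-sided exact permutation test (p = 0.0909, adjusted p = 0.545 over 6 shares). For WNT5A the shares were 5.70% ± 0.433 (SD, n = 5) and 6.67% ± 1.55 (SD, n = 6), with an exact permutation p of 0.208 and an adjusted p of 0.551. WNT7B and WNT5A together held 18.2% to 27.0% of the ligand RPKM of a tumour.

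**Figure D2:**
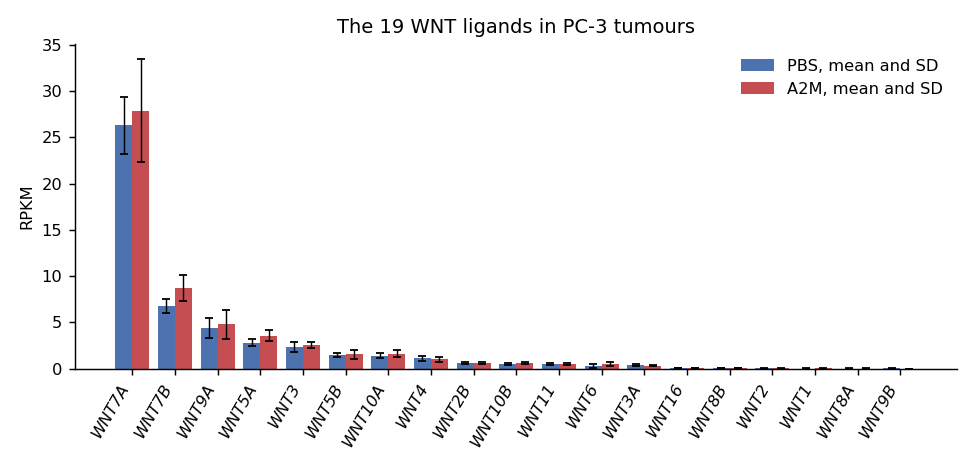
Mean RPKM of the 19 WNT ligands in the PBS tumours (blue, n = 5) and the A2M* tumours (red, n = 6, legend: A2M), with error bars of 1 SD. WNT7A, at 27.2 RPKM over all tumours, stands far above WNT7B with 7.80 RPKM and WNT5A with 3.19 RPKM.

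CTNNB1, the effector of the canonical branch, was the steadiest member. It had 431.5, 461.6, 421.2, 457.1 and 408.3 CPM in the 5 PBS tumours and 353.5 to 465.6 CPM, median 439.6 CPM, with A2M*. PC3_tumor_132 of the A2M* group lay below all others, and the remaining 5 A2M* tumours lay between 433.3 and 465.6 CPM. CTNNB1 differed by -0.02 on the log2 scale, with a 95% interval from -0.18 to 0.14 (edgeR adjusted p = 0.970). Its sign was positive without PC3_tumor_132 and when counts were scaled to library size only. CTNNB1 is annotated at chr3:41236232-41301587 on the forward strand.

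AXIN2, the target gene most often used as a readout of canonical signalling, had 6.80, 7.41, 6.52, 5.69 and 8.24 CPM in the PBS tumours. With A2M* it had 6.64 to 8.95 CPM with a median of 7.77 CPM. The highest 2 of the 11 values were from A2M* tumours and the lowest 2 from PBS tumours, with much overlap between. The log2 fold change was 0.16 with a 95% interval from -0.09 to 0.41 (edgeR adjusted p = 0.840, exact permutation p = 0.186). Of the GENCODE exon bases of AXIN2 at chr17:63524681-63557766, 25.3% are shared with another gene model on the same strand, which was not used here.

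The transcription factors LEF1 and TCF7L2 differed in how far they varied. LEF1 had 2.42, 1.64, 1.51, 1.87 and 1.08 CPM in the PBS tumours and 0.831 to 3.46 CPM, median 1.88 CPM, in the A2M* tumours. Both the lowest and the highest tumour were again from the A2M* group, and 3 of 6 A2M* tumours were above the PBS range. Its log2 fold change was 0.23 with a wide 95% interval from -0.47 to 0.93 (edgeR adjusted p = 0.922). This value rested on single tumours, with 0.0010 without PC3_tumor_131 and 0.39 without PC3_tumor_123. LEF1 shares 5.20% of its GENCODE exon bases with LEF1-AS1 on the other strand, which had a mean of 4.55 counts. TCF7L2 had 30.2, 32.3, 36.5, 33.7 and 33.0 CPM with PBS and 25.0 to 36.3 CPM, median 30.6 CPM, with A2M*. Here 2 of 6 A2M* tumours lay below the PBS range and none above it. The log2 fold change of TCF7L2 was -0.12 with a 95% interval from -0.33 to 0.10 (edgeR adjusted p = 0.866). Within the summed RPKM of TCF7, TCF7L1, TCF7L2 and LEF1, TCF7L2 held 33.0% ± 2.35 (SD, n = 5) with PBS and 35.5% ± 4.98 (SD, n = 6) with A2M*, and LEF1 1.80% ± 0.593 and 2.43% ± 1.38 (exact permutation p = 0.327 and p = 0.385, both adjusted p = 0.551). The largest part of this sum was TCF7L1, with a mean of 12.2 RPKM and a log2 fold change of -0.34 (edgeR adjusted p = 0.599). These shares therefore also depend on TCF7L1.

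RNF43, which lowers the number of WNT receptors at the surface, had 17.7, 18.1, 18.3, 15.4 and 20.6 CPM in the PBS tumours and 10.4 to 19.9 CPM, median 16.8 CPM, with A2M*. PC3_tumor_131 and PC3_tumor_112 of the A2M* group lay below the PBS range, and no A2M* tumour lay above it. RNF43 differed by -0.18 on the log2 scale, with a 95% interval from -0.49 to 0.13 (edgeR adjusted p = 0.852), and by -0.081 without PC3_tumor_131. RNF43, at chr17:56431037-56494956 on the reverse strand, shares 68.4% of its GENCODE exon bases with another same-strand gene model, which was not used here.

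**Figure D3:**
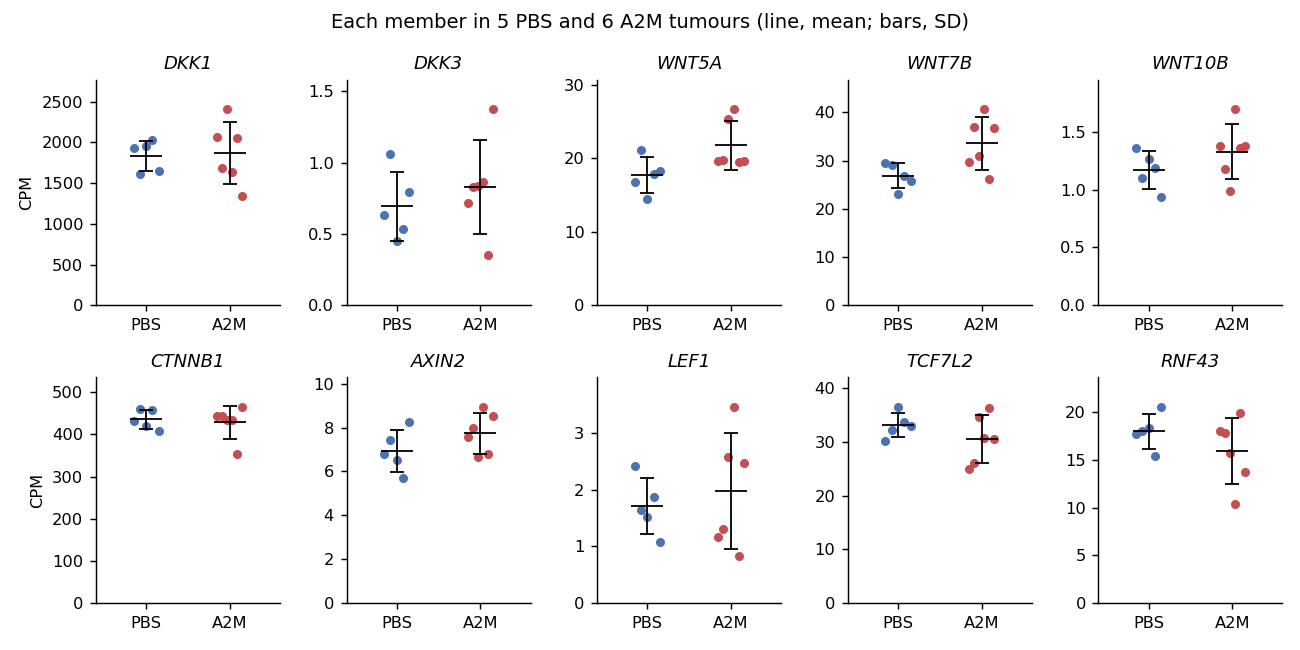
CPM of each member in each tumour on linear axes from 0, with PBS beside A2M*, 1 point per tumour, and the mean and SD of each group. The groups overlap in every member, 5 of 6 A2M* points of WNT7B lie above every PBS point, and the A2M* points of LEF1 and DKK3 spread on both sides of the PBS points.

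Around the members, the pathway as a whole showed no gene past the adjusted threshold. Of 155 pathway genes listed by role, 28 were too low to be tested. Of the rest none had an adjusted p under 0.01 in edgeR, and 12 (9.45%) had an unadjusted p under 0.05, 7 higher and 5 lower with A2M*. Over all 16630 genes the share was 7.08%, which the pathway lay near, and single genes with such a p are given as a description. This unadjusted number was 12 to 15 with other scalings, filters and tests, among them 13 with DESeq2. With 1 tumour left out it was 6 to 17, namely 7 without PC3_tumor_125, 8 without PC3_tumor_130 and 6 without PC3_tumor_131. The log2 fold change was above 0 for 67 genes and below 0 for 60, with a median of 0.005. Of the 19 ligands, 13 could be tested, of which 10 were above 0 and 3 below, with a median of 0.081, and WNT7B and WNT5A were those with an unadjusted p under 0.05. Of the 12 pathway genes with such a p in edgeR, FZD8, CCND1, PPARD and NFATC2 had a two-sided exact permutation p between 0.0693 and 0.0823. The others of the 12 were also under 0.05 in the exact permutation test.

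At the surface, the receptors and co-receptors had log2 fold changes above 0 in 5 of 15 genes tested and below 0 in 10, with a median of -0.054. FZD8, the most abundant Frizzled receptor at 86.5 RPKM, had a log2 fold change of -0.34 ± 0.137 (SE; unadjusted p = 0.0281, edgeR adjusted p = 0.649), and PTK7 with 42.1 RPKM and FZD6 with 24.9 RPKM came next. The receptors that DKK1 binds were present, named here by role after their values were seen, with 24.2 RPKM of LRP5, 3.90 RPKM of LRP6 and 3.50 RPKM of KREMEN1. ROR2, a receptor of WNT5A, had 0 to 9 counts, while its relative ROR1 had 1.22 RPKM. Of the secretion genes, WLS, which carries WNT proteins to the membrane, had 24.1 RPKM and PORCN, which attaches their lipid, 7.61 RPKM, and neither had an unadjusted p under 0.05. NOTUM had 0 to 7 counts. Among 16 secreted or surface antagonists, 6 were tested, 3 above 0 and 3 below with none at an unadjusted p under 0.05, and after DKK1 the highest were TPBG with 36.6 RPKM and SOSTDC1 with 3.86 RPKM.

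Of the R-spondin and receptor turnover genes, 6 of 9 were tested, 4 above 0 and 2 below with a median of 0.068. LGR4, a receptor of R-spondins, led with 13.2 RPKM, and ZNRF3, the partner of RNF43, had 2.35 RPKM. LGR6 had a log2 fold change of 0.43 ± 0.178 (SE; unadjusted p = 0.0291, edgeR adjusted p = 0.656). All 24 genes of the Dishevelled and destruction complex list were tested, 9 above 0 and 15 below with a median of -0.009. After CTNNB1, DVL1 with 93.6 RPKM and CSNK1A1 with 85.4 RPKM were highest, and BTRC, which marks beta-catenin for degradation, had a log2 fold change of 0.18 ± 0.0649 (SE; unadjusted p = 0.0146, edgeR adjusted p = 0.640).

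In the nucleus, TCF7L1, the relative of TCF7L2 that mainly represses, had the smallest p of the pathway, with a log2 fold change of -0.34 ± 0.103 (SE; unadjusted p = 0.00513, edgeR adjusted p = 0.599). CTNNBIP1, which keeps beta-catenin from TCF factors, had -0.17 ± 0.0718 (SE; unadjusted p = 0.0319, adjusted p = 0.668). Of the 20 TCF/LEF factors and partners tested, 12 were above 0 and 8 below with a median of 0.047, and the most abundant were TLE5 (AES in the tables) with 263.1 RPKM, TLE2 with 63.5 RPKM and SMARCA4 with 41.4 RPKM. Beta-catenin targets were 22 of 26 tested, 15 above 0 and 7 below with a median of 0.045. Among them SOX9 had a log2 fold change of 0.21 ± 0.0736 (SE; unadjusted p = 0.0135, edgeR adjusted p = 0.640), the cyclin CCND1, at 87.0 RPKM, 0.21 ± 0.0910 (SE; unadjusted p = 0.0395, adjusted p = 0.697), and PPARD -0.24 ± 0.101 (SE; unadjusted p = 0.0310, adjusted p = 0.663). The surface receptor CD44 had 72.6 RPKM. Among these targets the members AXIN2 and LEF1 were above 0, RNF43 below, and none had an unadjusted p under 0.05.

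The non-canonical branch had 22 of 23 genes tested, 12 above 0 and 10 below, with a median of 0.019. It was led by the GTPases RHOA with 210.6 RPKM and RAC1 with 164.8 RPKM. CAMK2G, at 60.4 RPKM, had a log2 fold change of -0.15 ± 0.0642 (SE; unadjusted p = 0.0347, edgeR adjusted p = 0.676) and NFATC2 0.33 ± 0.146 (SE; unadjusted p = 0.0378, adjusted p = 0.693). At adherens junctions, where beta-catenin binds cadherins, 6 of 7 genes were tested, 3 above 0 and 3 below with none at an unadjusted p under 0.05. CDH1 had 79.5 RPKM, JUP 47.5 RPKM and CDH3 45.6 RPKM.

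**Figure D4:**
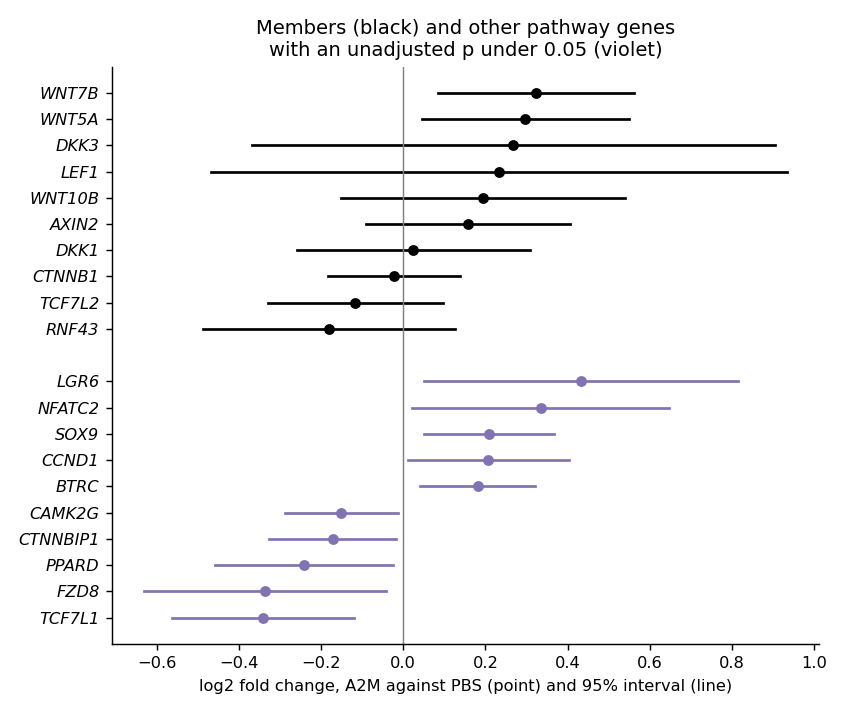
Log2 fold change of A2M* against PBS (point) with its 95% interval (line) from edgeR, for the 10 members in black and, in violet, for the other pathway genes chosen for an unadjusted p under 0.05. The intervals of WNT7B (0.08 to 0.56) and WNT5A (0.04 to 0.55) lie above 0, and those of the other 8 members include 0.

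Members were also compared with each other across tumours, after group means were subtracted, over 45 pairs and 11 tumours. By Pearson's r, 8 pairs had an unadjusted p under 0.05 and 2 had an adjusted p under 0.05, both negative. LEF1 and RNF43 had r = -0.873 (permutation test within groups, p = 0.00163, adjusted p = 0.0380) and rho = -0.864 (permutation p = 0.00303, adjusted p = 0.0682). Tumours with more LEF1 thus had less RNF43. DKK1 and AXIN2 had r = -0.809 (permutation p = 0.00169, adjusted p = 0.0380) and rho = -0.827 (permutation p = 0.00214, adjusted p = 0.0682). Without the 2 tumours farthest from the median of the first gene, r was -0.774 for LEF1 and RNF43 and -0.854 for DKK1 and AXIN2. Under other settings the calls were lost, as no pair had an adjusted p under 0.05 by rho or with counts scaled to library size only. With library size scaling r was -0.856 for LEF1 and RNF43 (permutation p = 0.00240, adjusted p = 0.108) and -0.755 for DKK1 and AXIN2 (permutation p = 0.00855, adjusted p = 0.192). With each tumour left out in turn, r stayed between -0.926 and -0.836 for LEF1 and RNF43 and between -0.858 and -0.767 for DKK1 and AXIN2, but 0 to 1 pairs passed. The paired values come from the same library, so that depth and composition are shared.

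**Figure D5:**
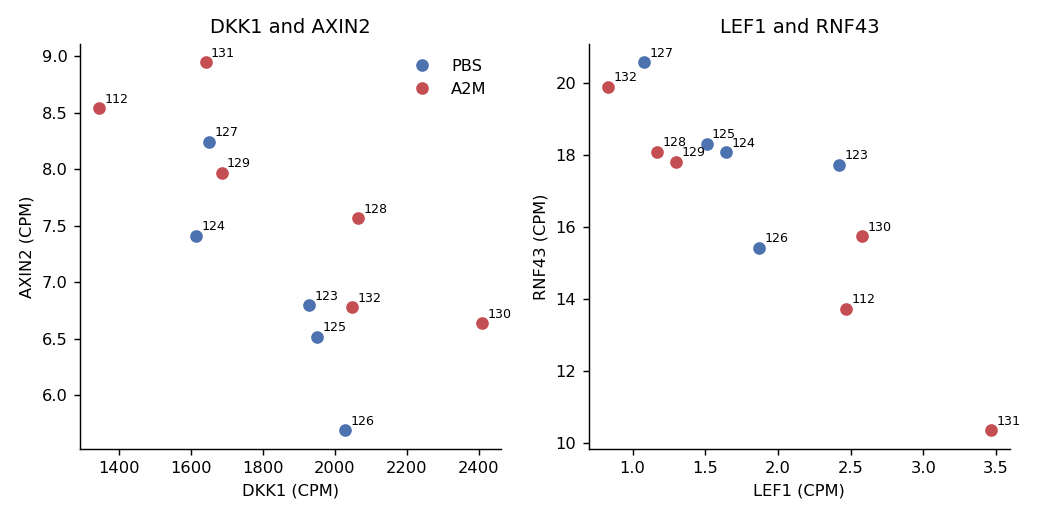
CPM of AXIN2 against DKK1 and of RNF43 against LEF1, 1 point per tumour with the number of its label, PBS in blue and A2M* in red. Tumours with more of one gene have less of the other in both plots, and after subtraction of group means r was -0.809 and -0.873 on the log2 scale.

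The genes whose pattern was most like that of DKK1 were taken from 12453 genes by Pearson's r of log2 CPM over the 11 tumours, group means subtracted, as a description with no test. They were ANAPC13 (r = 0.905), a small subunit of the anaphase-promoting complex, the long non-coding LINC01426 (r = 0.897), RBM34 (r = 0.887), TBC1D30 (r = 0.884) and CALML4 (r = 0.872). No WNT pathway gene was among these 5. The rho of these 5 with DKK1 lay between 0.809 and 0.936.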

How the data were processed

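RNA of 11 PC-3 tumours was measured by single-read RNA sequencing. The authors prepared TruSeq RNA v2 libraries, which do not mark strand, sorted the reads by species with xenome, mapped human-assigned reads to hg19 (TopHat2) and assigned them to RefSeq genes (featureCounts) (bcl2fastq 1.8.4 is named in the submitters' processing notes; the strand setting and other versions are not given in the sources used here). The deposited counts are not normalized. The deposited RPM are counts scaled to one total per tumour, checked to within 4.99e-07, and the deposited RPKM divide these by exon length, which was the same in every tumour for the 16046 genes checked. RPKM served to compare levels between genes and counts to compare groups.

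Genes were kept by filterByExpr and counts scaled by TMM. Groups were compared in edgeR 4.0.16 (R 4.3.3) by its quasi-likelihood fit, without covariates, with Benjamini-Hochberg adjustment over 16630 genes and a threshold of 0.01 as in the study. The SE is the size of the log2 fold change over the square root of F. Single values were compared by two-sided exact permutation over all labelings, whose smallest p is 0.00216. Neighbouring levels were compared on log2(RPKM + 0.01), where 11 tumours allow no p below 0.000977. Relations used log2 CPM with a prior count of 2 and 100000 permutations inside the groups. The floor of 3 counts covers counting error only, and 95% intervals are those of the edgeR fit.

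The members and gene lists were chosen with earlier results of these data known. All members were named, and from each pathway list the 3 genes with the highest mean RPKM and up to 3 with the smallest unadjusted p under 0.05. The 5 genes most like DKK1 were taken among genes whose average log2 CPM reached 2. Other genes were named by role after their values were seen. The values of 1 listed marker gene are not reported here. Of 189 listed genes, 186 matched by symbol and 3 by synonym. Alternatives were RLE, upper quartile and library size scaling, leaving the filter out or asking for 10 counts in each tumour, DESeq2 1.42.0, other edgeR tests, limma-voom (limma 3.58.1), other thresholds, and each tumour left out. Positions and exon overlaps are from GENCODE mapped to GRCh37. The percentages of shared exon bases refer to GENCODE exons, not to the RefSeq models that were counted. Figures were drawn with matplotlib 3.10.9.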

Additional observations from a re-analysis of the deposited data

Results flagged for a closer look

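Among 36 groups of values searched for a tumour far from the rest of its group (the members' CPM, their shares of a family, total counts and the summed RPKM of the WNT ligands, in each group), 1 was found, where chance alone gives about 1.8. CTNNB1 had 353.5 CPM in PC3_tumor_132 of the A2M* group, and the other 5 A2M* tumours had 433.3 to 465.6 CPM. The same tumour had the lowest LEF1 of all 11, at 0.831 CPM, and the lowest WNT7B of the A2M* group, at 26.2 CPM. Other members went the other way there, with the highest TCF7L2 and RNF43 of the A2M* group, at 36.3 and 19.9 CPM. Its DKK1, at 2049 CPM, was above every PBS tumour. Without PC3_tumor_132 the log2 fold change of CTNNB1 was 0.028 and that of WNT7B stayed above 0.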

How the results depend on the processing

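In the 11 other settings (scalings, filters, tests and thresholds) and with each tumour left out, 0 members passed. Of the members, 1 to 2 had an unadjusted p under 0.05 with a tumour left out, and 2 with DESeq2. Of 199 recomputed member fold changes, 192 kept their direction and 7 turned. DKK1 turned when PC3_tumor_124 (-0.018) or PC3_tumor_127 (-0.011) of the PBS group, or PC3_tumor_128 (-0.0067), PC3_tumor_130 (-0.059) or PC3_tumor_132 (-0.0041) of the A2M* group, was left out, and its log2 fold change ranged from -0.059 to 0.10. CTNNB1 turned with library size scaling (0.020) and without PC3_tumor_132 (0.028), in a range from -0.045 to 0.028. Among 72 recomputed shares, that of WNT10B turned without PC3_tumor_127 (-0.0044 percentage points), in a range from -0.0044 to 0.11. WNT7B stayed above 0, between 0.26 and 0.38, with 1 tumour left out, and WNT5A between 0.23 and 0.37. In the same way LEF1 ranged from 0.0010 to 0.39, DKK3 from 0.047 to 0.47, WNT10B from 0.11 to 0.27, AXIN2 from 0.096 to 0.23, TCF7L2 from -0.17 to -0.064 and RNF43 from -0.25 to -0.081. When an unadjusted p up to 0.01 was asked of edgeR and of DESeq2 together, 1 pathway gene passed, TCF7L1. With RPM in place of RPKM, 4 of 10 members kept their rank. The pairs of members with an adjusted p under 0.05 numbered 0 with Spearman's rho (5 unadjusted), 0 with library size scaling on log2(RPM + 0.1) (7 unadjusted), and 0 to 1 with a tumour left out, 3 alternatives chosen after seeing the data. The cause of these turns was not tested. DKK3 gave no value with at least 10 counts in every tumour. No paired analysis was possible because the groups share no tumour numbers. The number of tumours and, for DKK3, WNT10B and LEF1, the counts limit what could be detected.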
